A study of Mus musculus with 4 samples.

Results

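Bcl2l11 and Bmf are genes of the BH3-only class, whose proteins BIM and BMF start programmed cell death. They were chosen by their measured values, as the genes whose transcription start site (TSS) lay nearest to 11 of the 3812 intervals in the authors' table of differential accessibility. Of these 11 intervals, 10 were assigned to Bcl2l11 and 1 to Bmf, among 2613 genes with at least 1 interval. The 10 intervals at Bcl2l11 had a higher mean read count after cholesterol removal, by 0.77 to 2.78 on the log2 scale. The interval at Bmf had a lower mean, with a difference of −0.71. Those differences are a description and not a test, since every interval of the table was listed because the authors called it different.

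Accessibility was measured by ATAC-seq, in which the Tn5 transposase cuts open chromatin and the reads mark where it cut. Samples came from RAW macrophages, an established mouse cell line, with 2 control samples labelled ctl that received no treatment and 2 samples labelled MCD. MCD is methyl-β-cyclodextrin, a ring of sugars that takes cholesterol out of membranes, and it was given at 5 mM for 1 hr in medium with BSA. The 4 samples share the same line and culture medium, and nothing says whether the 2 of a condition came from separate cultures. Only the authors' mean for each condition was used here, so no value has a spread between samples and no test was run. The labels give 50 M paired-end reads per library, and the reads kept in each sample after filtering are unknown. In a bulk sample, more cells with an open interval and a more open interval in each cell cannot be told apart.

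BH3-only proteins sense stress and bind the pro-survival members of the BCL2 family in the groove that would otherwise hold BAX and BAK. BAX and BAK then open the outer mitochondrial membrane, cytochrome c leaves, and caspases are activated. BIM, the product of Bcl2l11, binds all the pro-survival proteins and limits the life of myeloid and lymphoid cells. BMF is related to it, and dynein light chains can hold either protein on the cytoskeleton. The region beyond Bcl2l11 holds Morrbid, a long noncoding RNA gene known in short-lived myeloid cells for holding Bcl2l11 expression down.

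All 11 intervals were 201 bp long and lay on chromosome 2 (GRCm38). Of these, 4 at Bcl2l11 are shown because they hold the largest difference, the κB and AP-1 matches described below, and the highest read counts. They are given 5′ to 3′ on the plus strand. The interval with the largest difference lay just past the annotated end of the gene, and it held no match to any of the 9 motifs searched.
chr2:128162903-128163103: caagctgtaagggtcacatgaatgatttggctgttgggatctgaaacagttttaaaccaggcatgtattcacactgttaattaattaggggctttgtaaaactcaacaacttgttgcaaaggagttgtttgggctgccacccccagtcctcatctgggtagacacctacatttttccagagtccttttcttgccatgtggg
The next interval downstream had the next largest difference. Capitals mark a κB match, the class of site bound by NF-κB, whose middle was 3.5 bases from the interval's centre.
chr2:128226607-128226807: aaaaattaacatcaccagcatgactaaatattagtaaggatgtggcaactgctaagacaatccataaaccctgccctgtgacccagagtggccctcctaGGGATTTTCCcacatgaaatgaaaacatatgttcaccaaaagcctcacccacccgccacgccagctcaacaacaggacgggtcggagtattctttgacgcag
Capitals in the next interval mark an AP-1 match (TGAGTCA), the site of Fos and Jun dimers, with its middle 2 bases from the centre.
chr2:128288069-128288269: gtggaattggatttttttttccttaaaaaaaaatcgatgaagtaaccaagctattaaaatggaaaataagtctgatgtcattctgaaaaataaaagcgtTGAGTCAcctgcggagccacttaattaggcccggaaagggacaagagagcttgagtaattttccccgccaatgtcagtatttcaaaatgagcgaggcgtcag
The interval with the most reads in either condition held 2 such matches, 44 and 71 bases from its centre.
chr2:128295192-128295392: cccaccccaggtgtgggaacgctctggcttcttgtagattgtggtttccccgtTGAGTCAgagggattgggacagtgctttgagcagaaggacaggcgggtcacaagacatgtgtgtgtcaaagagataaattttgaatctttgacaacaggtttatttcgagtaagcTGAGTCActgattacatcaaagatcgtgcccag
At Bmf, the 161 bases of the interval that lie outside annotated exons are shown, with capitals on a PU box (GAGGAA), the core of the site bound by the macrophage factor PU.1. Its middle was 14.5 bases from the interval's centre.
chr2:118545317-118545477: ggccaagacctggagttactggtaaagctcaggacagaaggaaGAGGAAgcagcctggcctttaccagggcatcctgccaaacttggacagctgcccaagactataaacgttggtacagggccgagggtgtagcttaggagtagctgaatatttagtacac

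Bcl2l11 (ENSMUSG00000027381.16) lies on the plus strand at positions 128126038 to 128162547 of chromosome 2. Its 10 intervals were spread over 240 kb, from 70.7 kb before the first TSS of the gene to 169 kb after it, with gaps of 1658 to 74372 bp between neighbours. None of them lay within 3 kb of a TSS, the distance that the study's methods set for a promoter, and the nearest TSS of any annotated transcript, coding or not, was at least 9628 bp away. The median distance to the TSS was 67792.5 bp, against 22369 bp over the 2790 intervals of the table that were higher after MCD. All 10 had a higher mean after MCD, a direction held by 73.2% of the 3812 intervals. Relative to the median difference of all intervals, 1.14, 8 of the 10 were higher, and the intervals at 1.13 and 0.77 were lower. A difference of at least 1 on the log2 scale was found in 9 of the 10 and in 57.3% of all intervals. Both counts come from the contrast that placed the intervals in the table, so nothing is read from them.

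The 3 intervals before the gene lay in intron 14 of 17 of its neighbour Acoxl (ENSMUSG00000027380.10, transcript ENSMUST00000028859.7), which encodes an acyl-CoA oxidase-like protein. The interval at 128055133 to 128055333, 70.7 kb upstream of Bcl2l11, had 52.5 normalised reads in control and 119 after MCD, a log2 difference of 1.18. At 128060958 to 128061158 the values were 48.0 and 105, a difference of 1.13. At 128069084 to 128069284, the closest of the Acoxl intervals to Bcl2l11, there were 10.9 reads in control and 34.6 after MCD, a difference of 1.67. The interval closest to the gene was thus the lowest of the Acoxl group in both conditions and had the largest difference of that group.

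A pair of intervals lay inside Bcl2l11 itself, in intron 2 of 4 of transcript ENSMUST00000019281.13, separated by 1658 bp. The interval at 128143657 to 128143857 had 7.12 reads in control, the lowest control value of the 10, and 31.1 after MCD, a log2 difference of 2.13. Its partner at 128145516 to 128145716 had 11.6 and 36.2, a difference of 1.65. Together with the nearest Acoxl interval, these had the 3 lowest MCD values of the 10.

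Just past the end of the gene, the interval at 128162903 to 128163103 had 7.81 reads in control and 53.8 after MCD. Its log2 difference of 2.78, a ratio of 6.89, was the largest of the 10. Of the 2790 intervals higher after MCD, 98.5% had a smaller difference. That share pools all control levels. Among the 477 higher intervals with under 12 control reads, 35 had a larger difference.

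The remaining 4 intervals lay in introns of Gm14005 (ENSMUSG00000074813.13), a long intergenic noncoding RNA gene on the minus strand at 128178319 to 128502765, whose transcription runs towards Bcl2l11. The interval at 128226607 to 128226807, the one with the κB match, had 9.80 reads in control and 56.9 after MCD, a log2 difference of 2.54. Its neighbour at 128229815 to 128230015 lay 3007 bp further on and had 37.4 and 145, a difference of 1.96. These neighbours in 1 intron differed in control level, and both had a difference above the median of the 10 intervals, 1.78.

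Further downstream, the interval at 128288069 to 128288269 had 47.6 reads in control and 175 after MCD, a difference of 1.88. The interval at 128295192 to 128295392, 169 kb from the first TSS, had 144 in control and 245 after MCD. It was the most open of the 10 in both conditions and had the smallest difference, 0.77. That interval alone held 38.3% of the control reads summed over the 10 and 24.5% of the MCD reads.

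**Figure D1:**
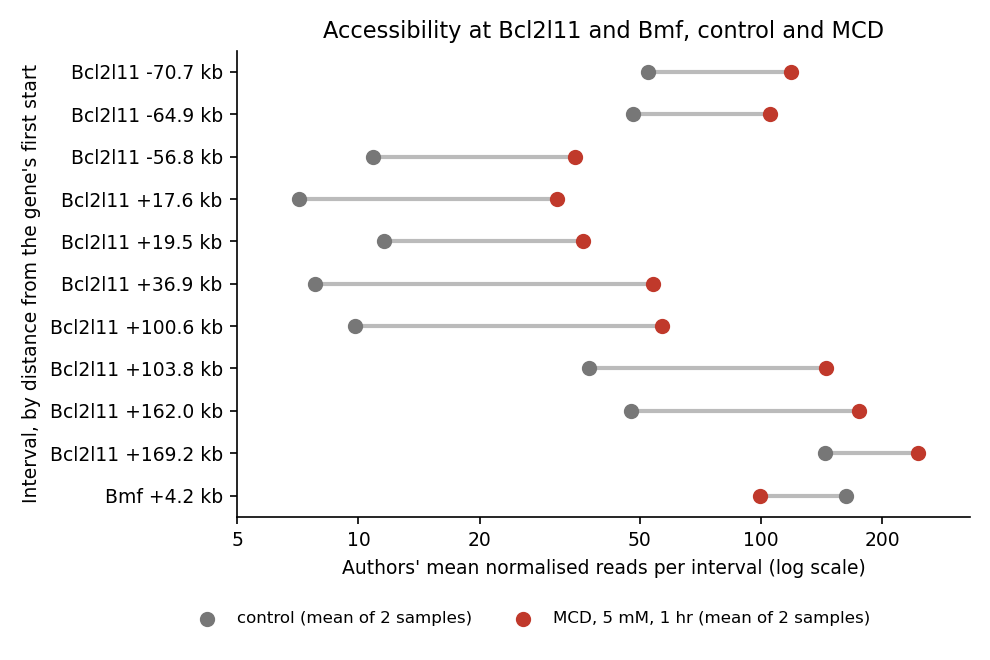
Authors' mean normalised reads per interval on a log axis, for control (grey) and MCD (red), each point the mean of 2 samples, with no error bars since per-sample values were not used. Rows are ordered by distance from the first TSS of the gene in kb, and the red point lies right of the grey one at all 10 Bcl2l11 intervals and left of it at Bmf (163 in control, 99.5 after MCD).

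The median log2 difference of the 10 intervals was 1.78, against 1.39 over all intervals higher after MCD, whose middle part between the quartiles ran from 1.05 to 1.81. Median reads were 24.5 in control and 81.0 after MCD at Bcl2l11, against 29.2 and 78.6 over the same higher intervals. By place, the median difference was 1.18 in the Acoxl intron, 1.89 in the Bcl2l11 intron and 1.92 in Gm14005, where it ranged from 0.77 to 2.54. The groups by place overlapped, with 3, 2 and 4 intervals in them.

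The control level split the 10 intervals into a low and a high set. In control, 5 intervals had 7.12 to 11.6 reads, and their differences ran from 1.65 to 2.78. The other 5 had 37.4 to 144 reads and differences of 0.77 to 1.96. The ranges overlapped, and the control level is itself a term of the difference. The table also holds few small differences at low levels. With limits set after the values were seen, the 477 higher intervals under 12 control reads had differences of at least 1.58, with a median of 2.13, and those at Bcl2l11 lay on both sides of that median. The 1131 higher intervals with at least 37 control reads had a median difference of 0.98. Differences above the largest at Bcl2l11 were held by 35 of the 477 and by 6 of the 1131. That largest difference was 2.78 in the low set. In the high set it was 1.96, at the Gm14005 interval with 37.4 control reads, just above the limit.

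**Figure D2:**
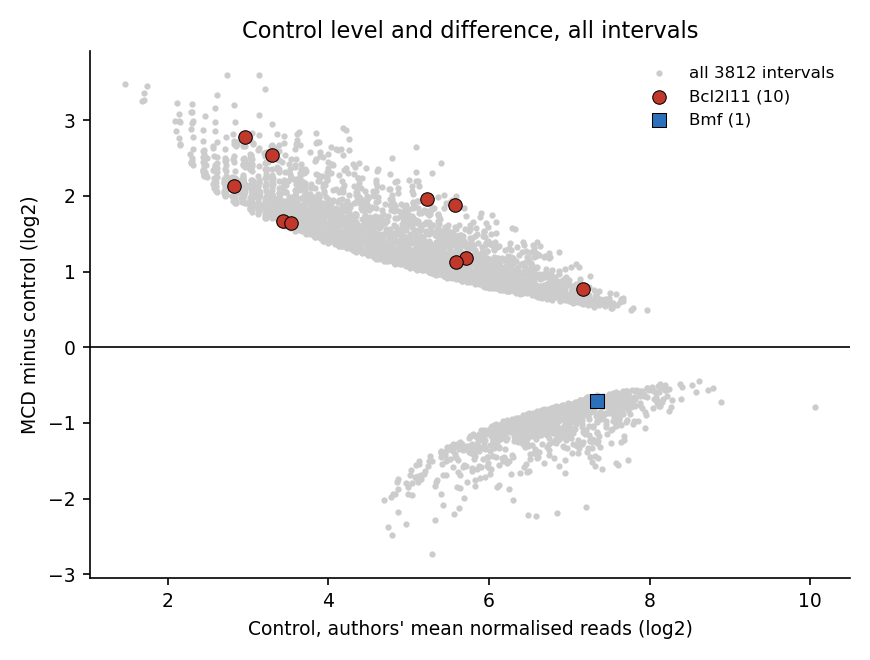
Log2 difference between MCD and control against the control level (log2 of the authors' mean normalised reads) for all 3812 intervals (grey), the 10 at Bcl2l11 (red circles) and the 1 at Bmf (blue square). No interval lies between −0.44 and 0.49, and differences near these limits occur at high control levels, where the Bcl2l11 interval at 0.77 and the Bmf interval at −0.71 sit.

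Bmf (ENSMUSG00000040093.15) lies on the minus strand at 118528757 to 118549687 of chromosome 2, between Srp14, which encodes a subunit of the signal recognition particle, and Bub1b, a kinase gene of the mitotic spindle checkpoint. Its interval at 118545277 to 118545477 had 163 reads in control and 99.5 after MCD. The log2 difference was −0.71, a ratio of 0.611, in a direction held by 26.8% of the intervals of the table. Among the 1022 lower intervals, 85.7% were more negative, and the median was −0.97. In control the interval was more open than 92.6% of all intervals in the table and more open than each of the 10 at Bcl2l11. After MCD it was below 5 of them.

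The Bmf interval lay 2082 bp downstream of the TSS of transcript ENSMUST00000110859.2 and 4210 bp downstream of the first TSS of the gene, in an intron of each. Its first 40 bases overlap the first exon of a partial transcript, ENSMUST00000154521.1, which starts inside it at 118545316. By the 3 kb limit it was a promoter interval, and no interval at Bcl2l11 was. It stood alone on the chromosome: the interval before it, at Thbs1, the gene of the matrix protein thrombospondin, was 537 kb away with a difference of −0.84, and the one after it, at Sptbn5, a spectrin gene, was 1551 kb away with 1.04.

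The intervals at Bcl2l11 belonged to a longer run. From 128055133 to 128469160, over 414 kb, 15 consecutive intervals were higher after MCD, a direction held by 73.2% of all intervals. Its left bound is a long gap and not a change of direction, since the interval before it, in Kcnip3, was also higher. Of the 15, 5 had Spdye4c, the next protein-coding gene downstream, as the nearest TSS. All 5 lay within the bounds of Gm14005. Just outside the boundary of the assignment, the interval at 128380596 to 128380796 had 57.6 reads in control and 113 after MCD, a difference of 0.97, against 0.77 at the last interval inside it. The interval after it had 36.6 and 79.5 reads, and the next 50.3 and 93.4. These values lie inside the range of the Bcl2l11 intervals.

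RefSeq names a minus-strand gene in this region Morrbid, for myeloid RNA regulator of Bcl2l11-induced cell death, and places it at 128298663 to 128429351. These bounds lie wholly inside those of Gm14005, the GENCODE model on the same strand. The Bcl2l11 intervals in Gm14005 introns lay outside the RefSeq bounds of Morrbid. Inside these bounds lay intervals of the run assigned to Spdye4c, starting at 128380596, 128382561 and 128387435. Their differences were 0.97, 1.12 and 0.89. The interval at 128433609 to 128433809 lay 4258 bp upstream of the RefSeq start of Morrbid and overlapped an exon of the transcript model Gm29010. It had 6.15 reads in control and 62.0 after MCD, a difference of 3.33, which was larger than at any of the 10 intervals assigned to Bcl2l11. Further upstream of Morrbid, the last interval of the run had 8.30 and 46.4 reads, a difference of 2.48. On either side the table was empty for a long stretch, 546714 bp before the run and 327406 bp after it. The nearest interval before the run, in an intron of Kcnip3, was higher by 0.82 on the log2 scale. The nearest after it, in an intron of the phagocytic receptor gene Mertk, was lower by 0.86.

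**Figure D3:**
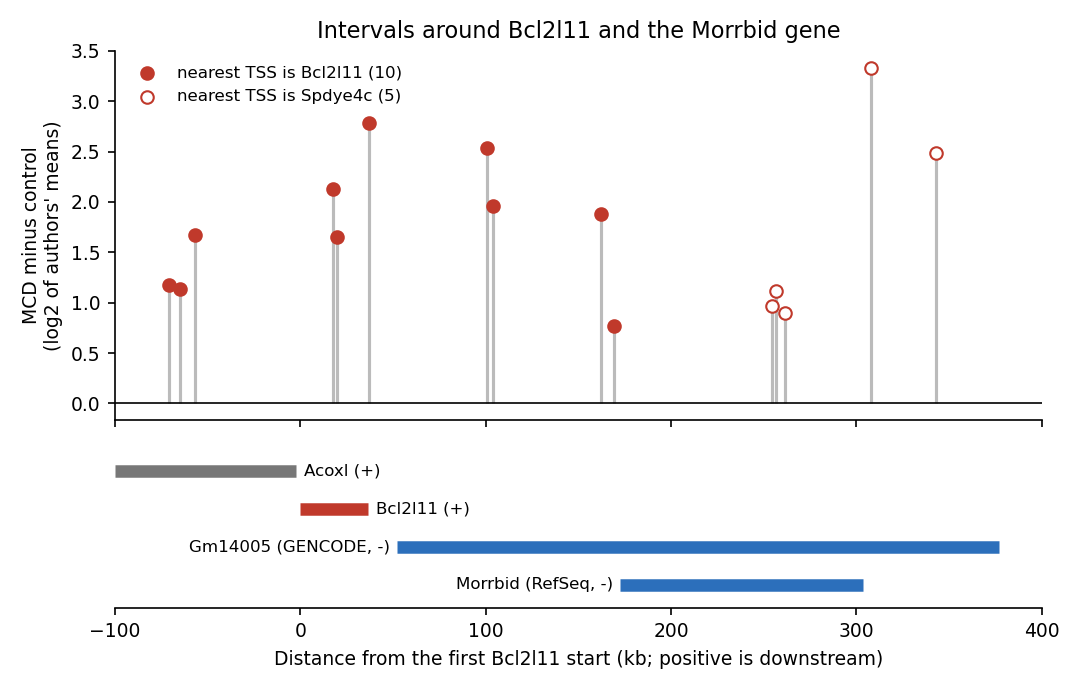
Log2 difference between MCD and control for each interval of the run, against distance in kb from the first Bcl2l11 TSS, with gene bounds drawn to scale underneath and strands in brackets (Acoxl continues to the left). The 10 filled points have Bcl2l11 as the nearest TSS and the 5 open points Spdye4c, and all 15 lie above 0, the highest at 3.33 next to the start of Morrbid.

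The assignment itself depends on which TSS are allowed. Gm14005 has 10 annotated transcripts and none with an Entrez identifier, so it could not take an interval. With all annotated transcripts, 2 intervals stayed with Bcl2l11, both in its intron 2, and the other 8 went to noncoding models (Gm23101, Gm14009 and Gm14012). The interval at Bmf stayed with Bmf.

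Sequence was not used to choose the intervals. An AP-1 match (TGACTCA or TGAGTCA, either strand) was found in 2 of the 10 Bcl2l11 intervals, against 45.9% of the 2790 higher and 1.96% of the 1022 lower intervals of the same length. When 100 bases were added on each side, 4 of the 10 held a match, against 56.9% of the higher intervals. All 4 were the Gm14005 intervals, and the 3 Acoxl and 2 Bcl2l11 intron intervals held none. Of the 5 neighbouring intervals of the run assigned to Spdye4c, 2 held an AP-1 match.

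A κB match was found in 1 of the 10, against 8.67% of higher intervals, and no CRE (TGACGTCA) was found, against 1.47%. A RUNX match (TGTGGTT) was found in 3 of the 10, against 7.92% of the higher and 11.4% of the lower intervals. In the Gm14005 interval with 37.4 control reads its middle lay 2 bases from the centre. In the intervals with 48.0 and 144 control reads it lay 35 and 58 bases away. FOXO factors are known to activate Bcl2l11, and no FOXO match (TGTTTAC) was in any of the 10, against 1.90% of higher intervals. Single intervals held a match to STAT (TTCNNNGAA), C/EBP (TTGCNNAA) or the PU box, and 1 interval in the Bcl2l11 intron held 2 GC boxes (GGGCGG). The intervals inside the Bcl2l11 intron and past the gene end with 7.12 and 7.81 control reads held no match to any motif.

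The PU box at Bmf is found in 52.2% of lower and 28.1% of higher intervals, and it was the only match there. The 10 Bcl2l11 intervals had a median GC content of 43.8%, with a range of 37.3% to 48.8%, against 47.8% in the higher intervals. The Bmf interval had 51.2%. With 10 and 1 intervals, these shares are counts and not estimates, and a match of letters does not show that a factor was bound.

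**Figure D4:**
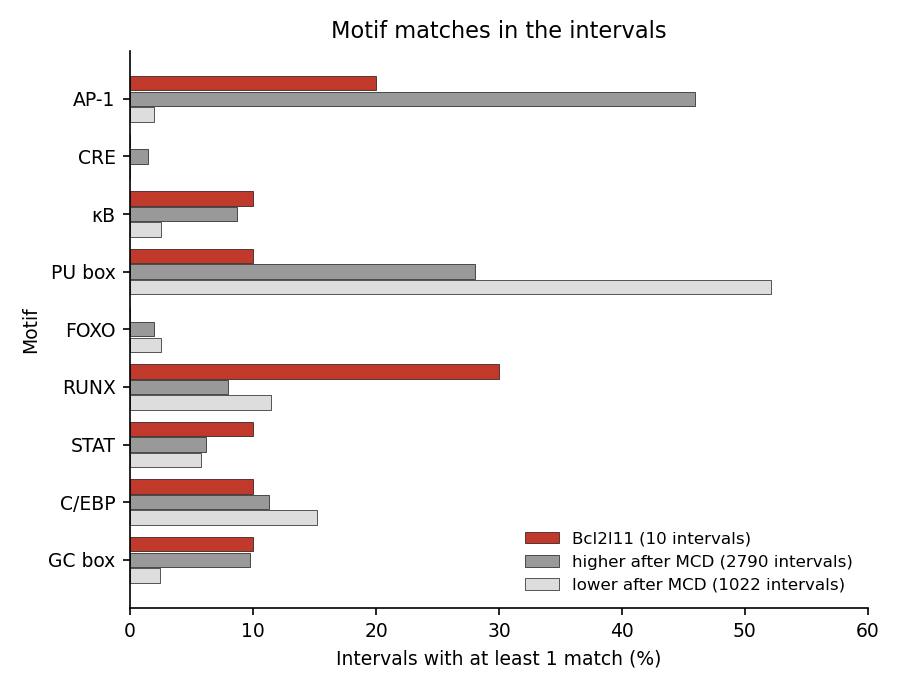
Share of intervals with at least 1 match to each of 9 motifs, in the 10 Bcl2l11 intervals (red, where 1 interval is a bar of 10%), the 2790 intervals higher after MCD (dark grey) and the 1022 lower (light grey). AP-1 was found in 20% of the Bcl2l11 intervals and 45.9% of all higher ones, and RUNX in 30% and 7.92%.

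Other genes of the pathway were taken from lists drawn up with earlier results of these data known, so their shares are a description. Of 47 cell death genes beside Bcl2l11 and Bmf, which were chosen for their intervals, 10 had an interval in the table (21.3%, against 11.7% of the 22384 genes with an Entrez identifier). Higher intervals alone were found at 5 of the 10, lower alone at 3 and both at 2. Over all 2613 genes with an interval, 68.0% had higher intervals alone, 25.3% lower alone and 6.74% both. These shares were not adjusted for gene length.

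Among the 10 BH3-only genes, 4 had an interval. Beside Bcl2l11 and Bmf, these were Bid, whose product is cut by caspase-8 to link death receptors to mitochondria, and Hrk, known mainly from neurons. The Bid interval 5445 bp upstream of its TSS had 15.5 reads in control and 49.4 after MCD, and a further one 37326 bp upstream, in an intron of Mical3, had 96.3 and 46.6. Bid thus had 1 interval in each direction. Hrk had 24.0 and 67.6 reads in an intron, a difference of 1.50. Bad, Bbc3, Bik, Bnip3, Bnip3l and Pmaip1 had no interval in the table. With the TSS set used, Bcl2l11 had 10 of the 14 intervals of the class. It was chosen for its intervals, and with all annotated transcripts it had 2.

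Of the 8 pro-survival genes, 3 had an interval. Bcl2 had a pair in its introns that were both lower, with 92.0 reads in control and 45.8 after MCD in the first and 76.5 and 35.5 in the second. Bcl2l1, which encodes BCL-XL, had an intronic interval with 12.5 reads in control and 79.4 after MCD. Its difference of 2.67 was close to the largest at Bcl2l11, and it held 2 κB matches. The interval assigned to Bcl2l10 lay 21597 bp away in an intron of Mapk6 and was lower by 1.27 on the log2 scale. No interval was assigned to Mcl1, to the Bcl2a1 genes or to Bcl2l2.

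The effectors Bax, Bak1 and Bok and the light chain genes Dynll1 and Dynll2 had no interval. Among 13 genes of caspase activation and its inhibitors, 2 had intervals, all of them higher. Both encode inhibitors: Cflar, which blocks caspase-8, had 121 and 199 reads, and Xiap, which blocks the executioner caspases, had 72.9 and 125 at one interval and 16.0 and 41.7 at the other. Among 13 genes known to regulate BIM or BMF, Foxo3 had an interval 105450 bp downstream of its TSS with 54.1 reads in control and 21.8 after MCD. Rps6ka1, the gene of a kinase in the ERK pathway, had 2 higher intervals (differences of 0.86 and 1.18). Btrc, which encodes an F-box protein of a ubiquitin ligase for BIM, had 2 higher (2.36 and 2.11) and 1 lower (−0.93). Genes that promote and genes that oppose death were thus found in each direction.

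**Figure D5:**
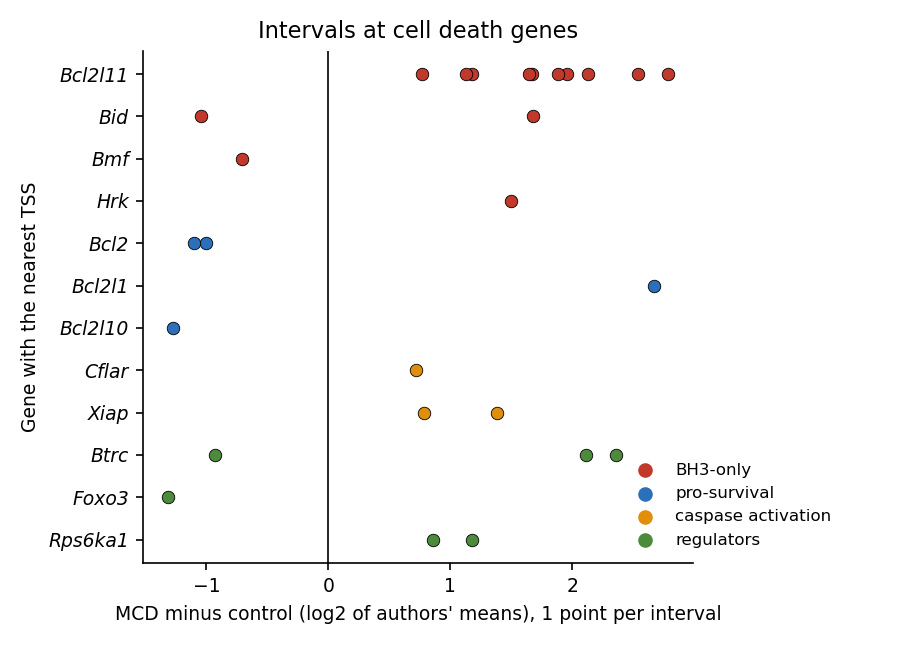
Log2 difference between MCD and control (authors' means) at every interval assigned to a cell death gene, 1 point per interval, coloured by the class of the gene. Bcl2l11 has 10 points from 0.77 to 2.78, Bcl2l1 reaches 2.67, and Bmf, Bcl2, Bcl2l10 and Foxo3 have points only below 0.

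By number of intervals, Bcl2l11 was the fifth gene of the table, after Nfkb1, Itga4, Cd44 and Cited2. These ranks hold for the TSS set used, since with all annotated transcripts Bcl2l11 had 2 intervals. No other gene had exactly 10 intervals, so the match on exact counts that gives the most similar genes had none to give for Bcl2l11. Genes with 9 or more intervals that were all higher were Nfkb1 (20), Cd44 (11), and Hivep3, Malt1 and Mrpl39 (9 each). Bmf shared its pattern of 0 higher and 1 lower interval with 556 genes, and the closest to its difference of −0.71 were Megf9, Parp11 and Qrsl1, each at −0.71.

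Macrophage markers could be seen only where an interval was assigned to them by the nearest TSS, which was the case for 4 of 8. The interval in an intron of Mertk, also among the 8, was lower by 0.86 and was assigned to Tmem87b. Adgre1, Csf1r and Lyz2 had lower intervals alone, with control reads of 168 to 224, and Spi1, the gene of PU.1, had 1 higher interval with 23.5 reads in control and 98.5 after MCD. No interval was assigned to the T cell marker Cd3e, the fibroblast marker Col1a1 or the epithelial marker Epcam. Since the table lists only intervals called different, a missing gene may be open and not called different.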

How the data were processed

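The authors performed ATAC-seq on 2 control and 2 MCD samples of RAW macrophages (MCD at 5 mM, 1 hr). Per the study's methods, reads were aligned to GRCm38 with Bowtie2, duplicates were removed with Picard, peaks were called with MACS2 (the submitters' processing notes name MACS3 3.0.0, Bowtie2 2.4.4 and cutadapt 2.6), and conditions were compared in DiffBind with DESeq2 and EdgeR. How reads were normalized, how the Tn5 offset was treated and on which samples, single or pooled, peaks were called is not given in the sources used here. The deposited values are log2 values of normalized reads, averaged by the authors over the 2 samples of each condition. The same table holds the authors' fold change, p-value and FDR for each interval, which were not used. Per-sample values were not analysed here, so no test or interval could be computed. The labels give 50 M paired-end reads per library, and the reads left after filtering are unknown.

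Reads were computed as 2 to the power of the deposited value, and differences as MCD minus control. Each interval was given the gene of the closest TSS among basic GENCODE M21 transcripts that carry an Entrez identifier. Sequence was read from the RefSeq GRCm38.p6 genome with pysam 0.24.0 and searched on both strands, after checks on simulated data. Calculations used Python 3.11.15, numpy 2.4.6 and pandas 2.3.3, and figures matplotlib 3.10.9. The members, gene lists and motifs were chosen with earlier results of these data known. Named genes were Bcl2l11 and Bmf, listed cell death genes with an interval, flanking protein-coding genes and the closest genes by number and difference of intervals. Other TSS sets, distance limits, pseudocounts, centring and motif windows were tried as alternatives.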

Additional observations from a re-analysis of the deposited data

How the results depend on the processing

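Of 32 values recomputed under an alternative, 20 were the same or moved less than the limit and 12 moved. No median changed sign, but with centring 8 of the 10 Bcl2l11 intervals, not 10, were above 0. The number of intervals assigned to Bcl2l11 went from 10 to 2 with all annotated transcripts, to 2 with overlap of the gene body or the 3 kb before it, to 3 within 50 kb, and to 2 with RefSeq gene starts (added once the values were known). It was 10 with protein-coding TSS and, also added later, with partial transcripts that have an Entrez identifier. The median log2 difference at Bcl2l11, 1.78, became 1.72 with a pseudocount of 1, 1.27 with a pseudocount of 8, 1.89 with all annotated transcripts, and 0.63 when centred on the median of all intervals, 1.14. The difference at Bmf, −0.71, became −0.67 with a pseudocount of 8 and −1.85 when centred. Centring puts 50% of all intervals above 0 instead of 73.2%. AP-1 matches at Bcl2l11 went from 2 to 4 intervals in the widened window. The promoter interval at Bmf went from 1 to 0 within 1 kb. That count used the TSS of basic transcripts, and the interval covers the TSS of the partial transcript ENSMUST00000154521.1, which is not among them. The causes follow from how each alternative was built: more or fewer starts allowed, weight taken from low reads, a shifted zero or more bases. No paired analysis was possible because only condition means were used, and for the same reason no sample was left out in turn. Filtered depth is unknown, and how firmly intervals with under 12 control reads were measured was not tested.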

Other observations

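The 9 genes with 9 or more intervals were listed after their values were seen. Nfkb1, the gene of an NF-κB subunit, had 20 intervals, all higher after MCD, with a median log2 difference of 1.72. Cd44, an adhesion receptor gene, had 11, all higher, with a median of 1.88, and Malt1, a gene of a protease in NF-κB signalling, had 9, all higher, with 2.08. Itga4, an integrin gene, had 12, all lower, with a median of −1.50. Runx1 had 8 higher intervals of 9. Bcl2l11, with 10 higher and a median of 1.78, lay among the genes whose intervals all had 1 direction. By contrast 1912 of the 2613 genes (73.2%), Bmf among them, had 1 interval.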
